A study of Mus musculus with 38 samples.

Results

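Sperm small RNA reads that come from the 3′ part of transfer RNAs (tRNAs) were described per isoacceptor, a tRNA species named by its amino acid and anticodon, in 38 mice raised on 4 combinations of diet. The members were every isoacceptor row that the deposited counts list in either of 2 classes of reads matching the genome, 3′ end fragments and CCA end fragments. There were 82 such rows, 46 of them 3′ end and 36 CCA end, out of 185 genome-matching tRNA rows and 638403 genome-matching class members of every kind. They covered 47 of the 54 listed isoacceptors, of which 35 had both kinds of row, 11 had a 3′ end row alone and 1 had a CCA end row alone.

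A mature tRNA ends in the bases CCA, which are not part of nuclear tRNA genes in mammals but are added to the trimmed transcript by the CCA-adding enzyme TRNT1, and the last base then receives the amino acid. Cleavage in the anticodon loop or the T loop leaves a 5′ fragment and a 3′ fragment, and 5′ fragments of a few isoacceptors make up much of the small RNA of mature mouse sperm. A 3′ fragment with the added tail comes from a tRNA that had been matured, whereas one without it may have been trimmed or come from a precursor.

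The ends of 8 nuclear tRNA genes show whether the genome continues with CCA after the gene. They are the genes whose last bases, with the bases that follow them, could be read from reference sequence of GRCm38 (mm10). Each line gives the last 27 bases of the gene in lower case and, in capitals, the 3 genomic bases that follow it, where the mature tRNA carries CCA instead. The strand is the one on which the anticodon and the T loop were found. The sequences come from RefSeq promoter windows (Ala-AGC, Arg-TCG, Thr-AGT, Val-CAC) and GENCODE transcripts (Ile-TAT, Arg-TCT, Ser-GCT, Ser-TGA).
Ala-AGC gene n-TAagc16, chr13:21222631-21222660, plus strand: ccccgggttcaatccccggcacctccaGTT
Ile-TAT gene n-TItat14, chr13:21896935-21896964, minus strand: ttgtgagttcgagcctcacctggagcaTGT
Arg-TCG gene n-TRtcg5, chr7:79466465-79466494, plus strand: ttgcaggttcgagtcctgccgcggtcgACT
Arg-TCT gene n-TRtct2, chr3:122292945-122292974, minus strand: ttccgggttcgagtcccggcggagtcgGAA
Ser-GCT gene n-TSgct5, chr13:22050683-22050712, minus strand: gcgtgggttcgaatcccatcctcgtcgGTC
Ser-TGA gene n-TStga1, chr13:23518201-23518230, plus strand: gcgcaggttcgaatcctgccgactacgTGA
Thr-AGT gene n-TTagt9, chr7:35234767-35234796, minus strand: tcctgggttcgaatcccagcggtgcctGAG
Val-CAC gene n-TVcac9, chr13:23446139-23446168, minus strand: tccccggttcgaaaccgggcggaaacaGTT
In 0 of the 8 genes did the genome continue with CCA, so a read through the tail of one of these tRNAs would differ from its gene in added bases. The counts nevertheless list CCA end reads that match the genome beside a larger class that does not, and the sequences of the reads were not used here.

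Each library came from 1 male C57BL6/J mouse, from sperm that swam out of the epididymis, taken when the males were 11 to 13 weeks old. A group's first 2 letters give the dam's diet from conception until the pups were weaned at day 21, and its last 2 letters what the offspring ate from then on, CT for control diet with 20% protein and PR for protein-restricted diet with 8%. CTCT mice (n = 10) had control diet throughout, CTPR mice (n = 9) were restricted after weaning, PRCT mice (n = 9) before it, and PRPR mice (n = 10) in both periods. The labels name no transgene, other allele or agent. The mice came from 21 litters, of which 8 gave mice to CTCT as well as CTPR and 9 to PRCT as well as PRPR. The labels put mouse 47I1 in CTCT and its littermate 47I2 in CTPR, and the study's own list of mice gives the opposite, so each diet comparison was also made with the 2 exchanged and without them.

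Reads matching the genome ranged from 4465281 to 7612603 per mouse and were the denominator of every value in RPM (reads per 1000000). Summed levels of 10 miRNAs typical of the male germ line and epididymis ranged from 122.1 to 4291 RPM, against 0 to 3.60 RPM for liver-specific mir-122 and 1.83 to 50.4 RPM for 4 blood miRNAs. These germ line and epididymis markers had a median of 2254 RPM in CTPR, against 1422 in CTCT, 1542 in PRCT and 1297 in PRPR. The pair of brain miRNAs had a median of 12.3 RPM in CTPR and of 3.31 to 4.79 RPM in the other groups, and muscle and heart miRNAs, from 0.870 to 477 RPM over all mice, had a median of 112.2 RPM in CTPR, 91.9 in CTCT, 57.2 in PRCT and 59.5 in PRPR. Medians of mir-122 were 0.465, 0, 0.166 and 0.246 RPM in the same order, and those of the blood miRNAs 7.64, 8.52, 6.54 and 6.70 RPM. Few members carried the larger sums. Over all mice, mir-10a, mir-34c and mir-10b averaged 589, 468 and 437 RPM, and no other germ line and epididymis marker exceeded 42.9. Of the muscle and heart miRNAs, mir-1a averaged 80.0 RPM, mir-133a 14.1 and mir-206 0.0292, and mir-208a had 0 reads. In bulk RNA, fewer sperm and less RNA per sperm cannot be told apart.

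Over all mice the 3′ end rows held 96173 reads and the CCA end rows 98592, against 25153263 reads in 5′ end rows and 29641681 reads in the rows for whole tRNAs. Fragments of the 3′ side were thus a small part of the tRNA reads of sperm. The 3′ end class made up 0.352% ± 0.102 (SD, n = 10) of tRNA reads in CTCT, and 5′ ends 85.7%. CCA end reads matching the genome are not contained in the count of whole tRNAs, so their level is given as reads per 100 tRNA reads, which was 0.328 ± 0.200 (SD, n = 10) in CTCT. Rows of CCA end reads not matching the genome summed to a larger number, 280785. Class totals of these reads differed from the rows in both directions. Mouse 02A6 had 5177 reads in rows against a total of 9278, and 07C3 had 3000 against 1845.

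Within the 3′ end class, 3 of 46 rows held 43.6% of the reads and 10 held 76.5%. Asp-GTC, which carries aspartate, led with a mean of 93.5 RPM or 23.1% of the class, and Asn-GTT, the only asparagine isoacceptor listed, followed with 52.6 RPM or 13.3%. The next rows were Glu-TTC at 30.0 RPM, Met-CAT at 27.5, Gly-ACC at 26.7 and Gln-CTG at 19.7. In all, 11 rows had reads in every mouse, 35 had a mean of at least 5 reads per mouse, and 2 had reads in fewer than 10 mice.

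The CCA end class had another order. Gln-CTG, a glutamine tRNA, led with 109 RPM or 27.4% of the class, Ile-AAT came next with 61.5 RPM or 15.3%, and Lys-CTT, Glu-TTC, Tyr-GTA and Phe-GAA followed at 39.5, 25.3, 22.1 and 18.9 RPM. Gln-CTG was also among the leading 3′ end rows, at rank 6, whereas Ile-AAT had rank 44 there. Asp-GTC and selenocysteine SeC-TCA had no CCA end row matching the genome. Asp-GTC did have the most CCA end reads that do not match the genome, at a mean of 303 RPM, while Phe-GAA had 0 such reads. Over 35 isoacceptors with both rows, the levels of 3′ end and CCA end reads had a Spearman correlation of 0.37, and levels of CCA end reads that match and do not match the genome had 0.69 over 34. Both correlations are across isoacceptors of the same libraries and are given as descriptions.

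**Figure D1:**
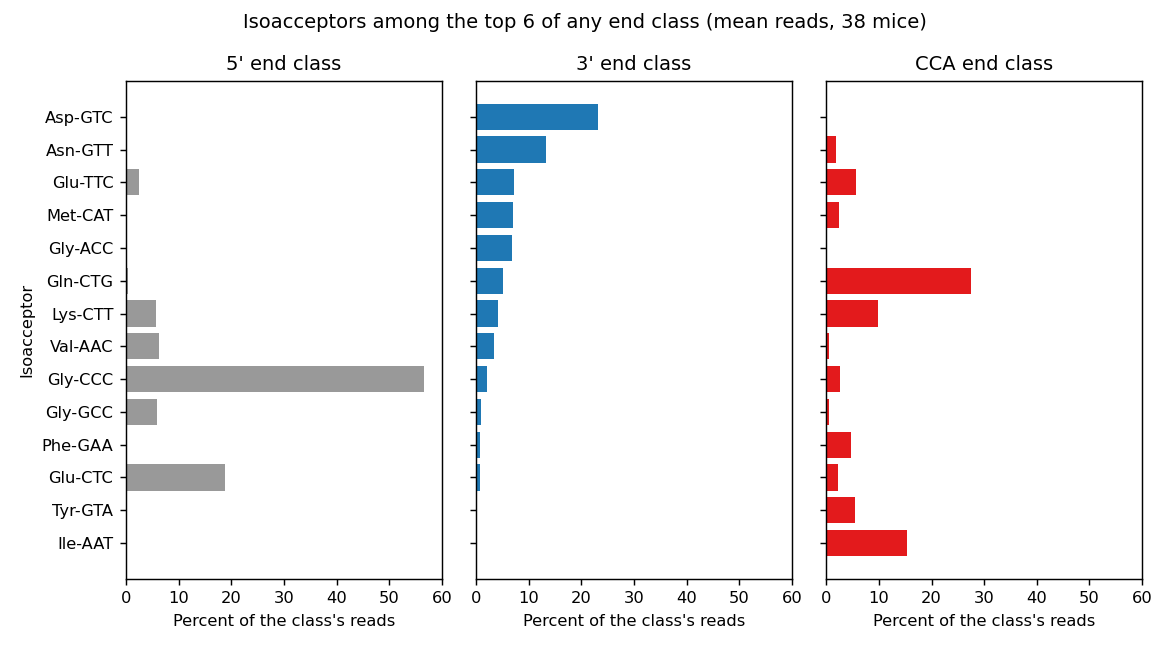
Percent of each class's reads held by the 14 isoacceptors among the leading 6 of any of the 3 classes, over 38 mice, with 1 panel for each class and bars starting at 0. Gly-CCC holds 56.6% of the 5′ end class, Asp-GTC and Asn-GTT hold 23.1% and 13.3% of the 3′ end class, and Gln-CTG and Ile-AAT hold 27.4% and 15.3% of the CCA end class.

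The isoacceptors with abundant 5′ fragments contributed less to the 3′ side. A list of 9 isoacceptors known for 5′ fragments in sperm (Gly-GCC, Gly-CCC, Glu-CTC, Glu-TTC, Val-CAC, Val-AAC, Lys-CTT, His-GTG and Asp-GTC) held 97.9% of 5′ end reads, 41.9% of 3′ end reads and 21.7% of CCA end reads. Without Asp-GTC, the leading 3′ end row, the other 8 held 97.8% of 5′ end and 18.8% of 3′ end reads. Gly-CCC had 138 reads in 3′ end rows per 1000000 in 5′ end rows, Glu-CTC 146, His-GTG 433 and Gly-GCC 541. Lys-CTT stood higher with 2805 and Glu-TTC with 11718. Over 46 isoacceptors the Spearman correlation of 3′ end with 5′ end levels was 0.27, and that of CCA end with 5′ end levels was 0.23 over 35. The number of RefSeq genes for an isoacceptor had a correlation of 0.16 with its 3′ end level over 45 isoacceptors and of 0.21 with its CCA end level over 36, against 0.56 with all its tRNA reads over 48.

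Shares of an isoacceptor's own reads ordered the rows differently. Among isoacceptors with a mean of at least 100 reads, Asn-GTT had 30.8% of its reads as 3′ ends, Leu-CAA 21.1% and Arg-ACG 19.3%, whereas Gly-GCC had 0.00501%, Glu-CTC 0.0135%, Val-CAC 0.0148% and His-GTG 0.0294%. Leu-CAA and Arg-ACG, a leucine and an arginine tRNA, averaged 15.0 and 3.75 RPM in 3′ end rows. For Asn-GTT, 5′ end reads were 0.253% of the isoacceptor's reads. Gly-ACC gave 115%, so its 3′ end row held more reads than its row for whole tRNAs. In the CCA end class, Ile-AAT had 272 reads and Ile-TAT 104 per 100 reads of the isoacceptor, Tyr-GTA 68.8, Phe-GAA 54.7 and Thr-TGT 23.4, and Val-CAC, Gly-GCC, His-GTG and Glu-CTC had the lowest values, from 0.00349 to 0.0440. The 5′ end rows of Gly-CCC and Val-AAC gave 876 and 264 per 100 reads of the isoacceptor. For 1 3′ end row and 6 5′ end rows, these 2 among them, a value above 100 shows that the rows for fragment ends and for whole tRNAs assigned some reads to different isoacceptors. The 2 CCA end rows above 100 show no such thing, since CCA end reads are not part of the whole-tRNA count.

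Grouped by amino acid, aspartate held 23.1% of 3′ end reads, asparagine 13.3%, glycine 9.95%, glutamate 7.96% and methionine 7.05%. Glutamine held 27.4% of CCA end reads, isoleucine 15.98%, lysine 11.7% and glutamate 8.00%. Isoleucine and tyrosine, high in CCA end reads, were near the bottom of the 3′ end class with 0.180 and 0.395 RPM. Serine and tryptophan showed the opposite order among reads matching the genome, with 5.03 and 5.96 RPM in 3′ end rows against 0.151 RPM and no CCA end row. Their CCA end reads not matching the genome were higher than either, at 27.5 and 73.1 RPM. The isoacceptors whose gene ends are printed above were minor members of the 3′ end class, the highest being Arg-TCT at 6.51 RPM in 3′ end rows.

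From mouse to mouse the 2 classes moved with each other and with the 5′ ends. Over 38 mice, log2 RPM of 3′ end reads and of 5′ end reads had r = 0.878 (rho = 0.886, permutation test, adjusted P = 1.33e-05, from the smallest P that 100000 permutations can give), and r was 0.869 without the 2 mice farthest from the median. Within CTCT, CTPR, PRCT and PRPR r was 0.807, 0.838, 0.940 and 0.886. CCA end reads followed 5′ end reads less closely, with r = 0.587 (rho = 0.636, permutation test, adjusted P = 8e-05) and 0.594 without the 2 farthest mice, and with r from 0.402 to 0.757 within groups. The 3′ end and CCA end levels had r = 0.737 (rho = 0.715, adjusted P = 1.33e-05, permutation test), 0.700 without the 2 farthest mice, and 0.589 to 0.795 within groups. CCA end reads that match and do not match the genome had r = 0.872 (rho = 0.823, adjusted P = 1.33e-05, permutation test), and 0.823 without the 2 farthest mice. These 4 relations share the genome-matching reads as denominator, and littermates are not independent.

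**Figure D2:**
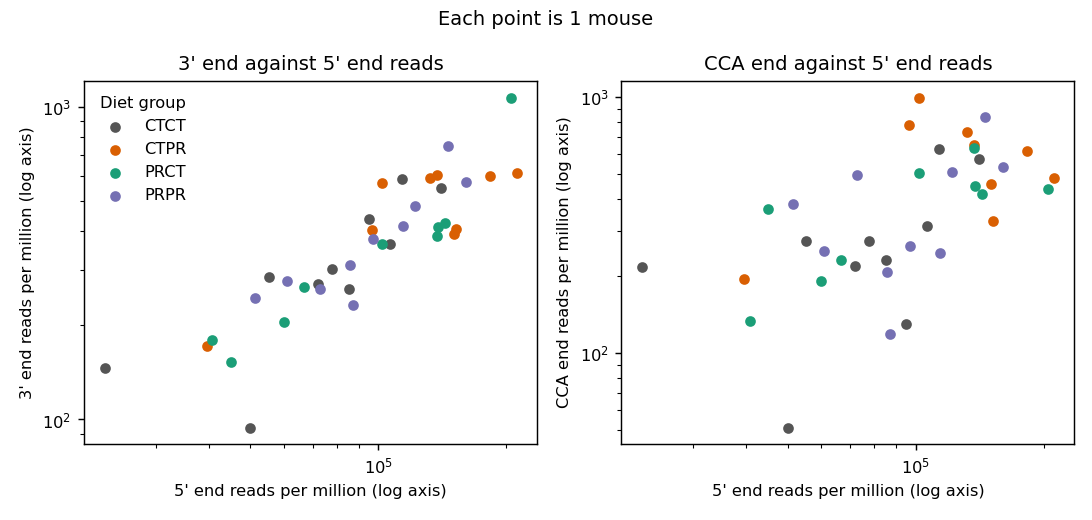
Level of the 3′ end class and of the CCA end class against the level of the 5′ end class, in RPM on log axes, with 1 point for each of 38 mice coloured by diet group. The 3′ end points lie closer to a line (r = 0.878) than the CCA end points (r = 0.587), and the diet groups overlap.

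The first question on diet was whether restriction before or after weaning altered the total level of 3′ fragments. The 3′ end class had a lowest, median and highest level of 94.2, 293.8 and 588.5 RPM in CTCT and of 171.9, 570.8 and 617.2 RPM in CTPR. In PRCT the values were 153.0, 364.0 and 1072 RPM and in PRPR 233.2, 346.1 and 752.6 RPM. The 4 groups overlapped, with CTPR highest by its median. On the log2 scale the mean was 0.645 higher in CTPR than in CTCT (two-sided exact permutation test, P = 0.0697, adjusted over 12 comparisons P = 0.418). PRCT and PRPR were 0.157 and 0.328 above CTCT (permutation tests, adjusted P = 0.645 or more). The PRCT mean lay below CTCT, at -0.0588 without mouse 59L1, at -0.0241 without mouse 07C3 and at -0.0231 without libraries 07C3, 35F2, 31A3 and 08G5.

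CCA end levels showed the wider gap. The lowest, median and highest values were 51.1, 251.8 and 627.7 RPM in CTCT and 194.8, 613.8 and 995.3 RPM in CTPR. In PRCT they were 133.3, 417.7 and 632.1 RPM, and in PRPR 118.4, 322.1 and 839.1 RPM. Of 9 CTPR mice, 8 lay above the CTCT median, and the ranges overlapped. The CTPR mean was 1.14 higher than CTCT on the log2 scale (two-sided exact permutation test, P = 0.0108), which did not pass after adjustment (P = 0.129). In the 8 litters that held both, the CTPR mouse was higher in 7, by a mean of 0.905 (exact permutation test flipping signs within litters, P = 0.0156, adjusted over 12 comparisons P = 0.188). The gap was 0.496 for PRCT and 0.482 for PRPR against CTCT (permutation tests, adjusted P = 0.645 for each). Without libraries 07C3, 35F2, 31A3 and 08G5 the CTPR gap was 0.85 (permutation test, adjusted P = 0.380). Mouse 07C3 had the lowest CTCT level, 51.1 RPM, and the gap was 0.90 without it alone and 1.13 without the other 3 (permutation tests, adjusted P = 0.233 and 0.197).

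**Figure D3:**
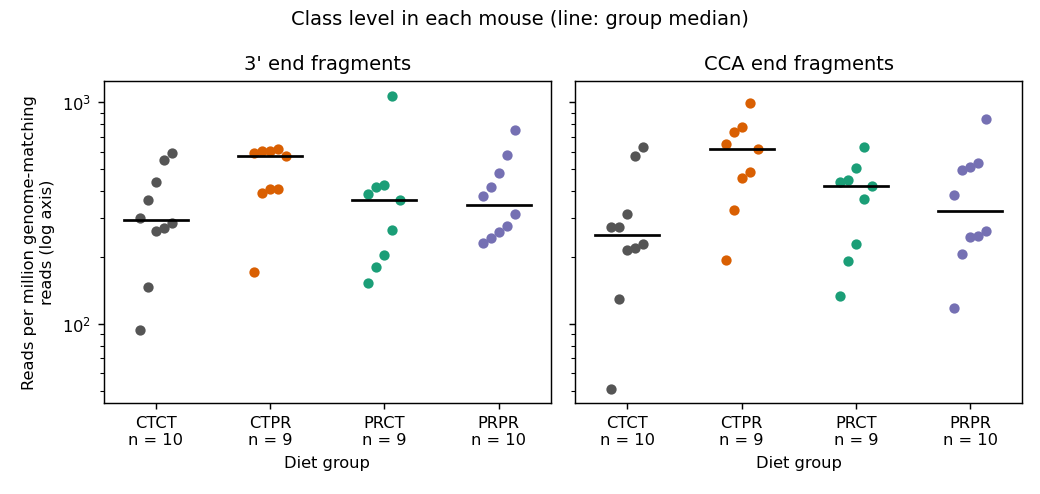
Level of the 3′ end and CCA end classes in each mouse, in RPM on a log axis, by diet group, with 1 point for each mouse and a line at the group median. CTPR has the highest median of both classes, 570.8 and 613.8 RPM, and overlaps the other 3 groups.

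The post-weaning diet was compared within each pre-weaning diet to see whether its effect differed between them. For CCA end levels it was 1.14 among all mice of CT litters and -0.015 among all mice of PR litters on the log2 scale. The difference was 1.16 (permutation test, P = 0.0493, adjusted over 4 measures P = 0.197). For 3′ end levels the difference was 0.473 (permutation test, adjusted P = 0.438). Between littermates the mean CCA end effect was 0.905 in 8 CT litters and 0.034 in 9 PR litters. That difference was 0.871 (permutation test, P = 0.0378, adjusted P = 0.151).

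As a part of all tRNA reads, neither class stood out in CTPR. The 3′ end share was 0.321% ± 0.081 (SD, n = 9) in CTPR, 0.311% ± 0.064 (SD, n = 9) in PRCT and 0.337% ± 0.056 (SD, n = 10) in PRPR, each below the CTCT mean of 0.352% by 0.0152 to 0.0405 percentage points (permutation tests, adjusted P = 0.645 to 0.826). This direction turned when each isoacceptor counted alike, with a median share 0.364, 0.342 and 0.168 percentage points higher in CTPR, PRCT and PRPR than in CTCT, and in CTPR it was 0.0633 points higher without Gly-GCC. CCA end reads per 100 tRNA reads were 0.407 ± 0.209 (SD, n = 9) in CTPR, 0.342 ± 0.153 (SD, n = 9) in PRCT and 0.342 ± 0.172 (SD, n = 10) in PRPR. The CTPR value was 0.0786 above CTCT (exact permutation test, adjusted P = 0.706). All tRNA reads together were 0.761 higher in CTPR than in CTCT on the log2 scale, and 5′ end reads 0.730 higher (permutation tests, adjusted over 15 comparisons P = 0.161 for each). CCA end reads not matching the genome were 0.498 higher (exact permutation test, adjusted P = 0.161).

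The make-up of the CCA end reads leaned to the genome-matching class in CTPR. Of all CCA end reads summed over rows, 28.9% ± 6.2 (SD, n = 9) matched the genome in CTPR and 21.2% ± 6.5 (SD, n = 10) in CTCT. The gap was 7.71 percentage points (exact permutation test, P = 0.0166, adjusted P = 0.161). The medians were 30.9% in CTPR, 22.6% in CTCT, 24.6% in PRCT and 21.6% in PRPR. From class totals they were lower, 27.8%, 17.1%, 17.4% and 15.0% in the same order, and this version was not tested. More CCA end than 3′ end reads were found in 18 of 38 mice, 7 of them in CTPR, 3 in CTCT, 4 in PRCT and 4 in PRPR.

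Single isoacceptors were then compared with edgeR's quasi-likelihood test over 151 tRNA rows with a mean of at least 5 reads, of which 65 were members, 35 from the 3′ end and 30 from the CCA end class. After adjustment no row passed in CTPR, PRCT or PRPR against CTCT, in PRPR against PRCT, or for the difference between the post-weaning effects (0% of 151 rows in each). Counts at an unadjusted P under 0.05 are therefore given as a description. In CTPR 16 of 65 member rows, 6 of them 3′ end and 10 CCA end, lay under it, against 27.2% of all rows tested, and DESeq2 gave 10. The member count was 8 without mouse 07C3 and 27 without litter 47I. All 16 were higher in CTPR. Of the 65, 60 had a log2 fold change above 0. So did 48 of 48 rows for whole tRNAs and 36 of 38 5′ end rows, so this direction was not particular to the members. The median was 0.87 in the members against 0.68 over all 151 rows, and the share of member rows under 0.05 was near that of all tRNA rows. Germ line, brain, muscle and heart miRNAs and mir-122 were also higher in CTPR by their medians, as given above, whereas blood miRNAs were lower in CTPR than in CTCT. The part of these miRNAs in the results was not tested. When libraries were scaled to their tRNA rows by TMM, the median of the members was 0.18 and 1 row lay under 0.05.

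Ile-AAT in the CCA end class had the smallest P. Its lowest, median and highest levels were 4.802, 38.9 and 90.2 RPM in CTCT and 39.4, 99.3 and 154 RPM in CTPR. The values were 29.3, 49.4 and 89.4 RPM in PRCT and 23.9, 51.7 and 125 RPM in PRPR. All 9 CTPR mice lay above the CTCT median and 5 above the highest CTCT mouse. The log2 fold change of CTPR against CTCT was 1.11 (edgeR, P = 0.00262, adjusted P = 0.139), and the CTPR mouse was higher in 7 of 8 litters.

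Arg-ACG, an arginine tRNA, was low throughout. Its CCA end row ranged from 0 to 5.28 RPM in CTCT with a median of 1.64, and from 1.24 to 10.4 RPM in CTPR with a median of 5.604. The PRCT and PRPR medians were 2.63 and 2.62 RPM. Of 9 CTPR mice, 8 lay above the CTCT median and 5 above the highest CTCT mouse, and the log2 fold change was 1.69 (edgeR, P = 0.00339, adjusted P = 0.139). The CTPR mouse was the higher in 8 of 8 litters. Its 3′ end row had medians of 3.02 RPM in CTCT and 4.51 RPM in CTPR and a log2 fold change of 0.97 (edgeR, P = 0.0177, adjusted P = 0.139).

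The 3′ end row of SeC-TCA, the tRNA that inserts selenocysteine at recoded stop codons, had lowest, median and highest levels of 1.39, 3.98 and 10.1 RPM in CTCT and 3.26, 7.33 and 15.0 RPM in CTPR. In PRCT the median was 6.75 RPM and in PRPR 7.44 RPM, so that CTCT stood lowest. The log2 fold change was 0.94 for CTPR (edgeR, P = 0.0108, adjusted P = 0.139) and 0.82 for PRPR (edgeR, P = 0.0235, adjusted P = 0.940). For Met-CAT, whose tRNAs start or elongate proteins with methionine, the CCA end row ranged from 2.63 to 16.6 RPM in CTCT with a median of 6.87 and from 5.53 to 21.0 RPM in CTPR with a median of 17.4. Of 9 CTPR mice, 6 lay above the highest CTCT mouse, with a log2 fold change of 0.93 (edgeR, P = 0.0152, adjusted P = 0.139).

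Apart from Ile-AAT, the rows leading the CCA end class did not reach an unadjusted P under 0.05 in the fit without litter. With litter as a block, Gln-CTG, Tyr-GTA, Lys-CTT and Phe-GAA did reach it (edgeR, P = 0.00361, 0.0219, 0.0244 and 0.0302). None of them passed after adjustment (edgeR, adjusted P from 0.0713 to 0.116), and Glu-TTC did not reach it (edgeR, P = 0.132). The values that follow are from the fit without litter. The lowest, median and highest level of Gln-CTG in the CCA end class was 3.10, 74.4 and 194 RPM in CTCT, and 12.8, 155 and 346 RPM in CTPR. Levels in PRCT (8.53, 118 and 237 RPM) and in PRPR (6.12, 85.4 and 234 RPM) covered the same range. Its log2 fold change in CTPR was 1.05 (edgeR, P = 0.0719, adjusted P = 0.177). Lys-CTT had CCA end medians of 25.4 RPM in CTCT, 52.9 in CTPR, 36.5 in PRCT and 37.001 in PRPR, and a log2 fold change of 0.83 in CTPR (edgeR, P = 0.0613, adjusted P = 0.177). Tyr-GTA had medians of 14.0, 31.4, 22.4 and 19.0 RPM and Phe-GAA of 13.3, 25.1, 17.3 and 18.1 RPM in CTCT, CTPR, PRCT and PRPR, with CTPR highest in both.

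Asp-GTC, the leading 3′ end row, was close between the diets. Its lowest, median and highest level was 30.7, 72.1 and 189 RPM in CTCT, 46.6, 108 and 172 RPM in CTPR, 38.3, 62.0 and 252 RPM in PRCT and 54.7, 90.4 and 149 RPM in PRPR. No CTPR mouse lay above the highest CTCT mouse, and the CTPR mouse was higher in 3 of 8 litters (log2 fold change 0.22, edgeR, P = 0.510, adjusted P = 0.583). Asn-GTT, second in the class, had 21.1, 31.0 and 79.0 RPM in CTCT and 33.5, 58.7 and 92.1 RPM in CTPR, and 9 of 9 CTPR mice lay above the CTCT median. The PRCT and PRPR medians were 50.6 and 60.8 RPM, and the CTPR log2 fold change was 0.55 (edgeR, P = 0.0980, adjusted P = 0.208). In Glu-TTC the 3′ end medians were 24.7, 24.8, 29.0 and 29.3 RPM in CTCT, CTPR, PRCT and PRPR. Gln-CTG 3′ end reads had medians of 13.3 RPM in CTCT and 33.3 RPM in CTPR (log2 fold change 1.00, edgeR, P = 0.0508, adjusted P = 0.171), the same direction as its CCA end row.

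Among the 14 rows tested for the 9 isoacceptors of the 5′ fragment list, 12 were above 0 in CTPR, with a median log2 fold change of 0.88, and 3 lay under an unadjusted P of 0.05, against 27.2% of all rows tested. They were Gly-CCC in both classes (0.95 for 3′ end and 0.88 for CCA end) and Glu-CTC in the CCA end class (1.04). Gly-CCC CCA end levels had medians of 6.95 RPM in CTCT and 17.3 RPM in CTPR, and Glu-CTC CCA end levels 5.15 and 14.3 RPM. Gly-GCC, Glu-CTC, Val-CAC and His-GTG were at or below 8.51 RPM in 3′ end rows in every mouse. CTPR had the highest group median in 30 of the 35 3′ end and in 24 of the 30 CCA end rows tested, and CTCT the lowest in 15 and 24. Rows outside the members also lay higher in CTPR than in CTCT. Their log2 fold change was above 0 in 48 of 48 rows for whole tRNAs and 36 of 38 5′ end rows.

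Comparing littermates, with litter as a block, 3 member rows passed in CTPR against CTCT (edgeR, 1.99% of 151 rows called after adjustment), and 26 of 65 had an unadjusted P under 0.05, against 32.5% of all rows. The 3 were CCA end rows. Arg-ACG rose by a log2 fold change of 1.63 (edgeR, adjusted P = 0.0457) and Val-TAC, a valine tRNA, by 1.33 (edgeR, adjusted P = 0.0457), with the CTPR mouse higher in 8 and 7 of 8 litters. Val-TAC CCA end medians were 5.36 RPM in CTCT and 12.4 in CTPR. Its widest gap was in litter 09H, where the CTPR mouse 09H5 had 27.04 RPM and its littermate 09H7 1.41, and in 09H5 the CCA end rows summed to 204 reads more than the class total. The calls after adjustment depended on which litters were in the fit. With each litter left out in turn, log2 fold changes were 1.29 to 2.05 for Arg-ACG and 0.97 to 1.58 for Val-TAC. Their unadjusted P (edgeR) was at most 0.00827. Without litters 09H, 35F, 53M or 57P in turn neither Arg-ACG nor Val-TAC passed, with adjusted P from 0.0595 to 0.251, and Arg-ACG also missed without 02A (edgeR, adjusted P = 0.0575). The number of member rows that passed ranged from 0, without 35F or 53M, to 24, without 45L. Arg-TCG was the third (edgeR, adjusted P = 0.0160), but among CTCT and CTPR mice its reads came from 35F1 and 53M4 alone, with 52 and 48 reads, and no fold change is given. In the PR litters 0 rows passed (0% of 151) and 2.65% of all rows had an unadjusted P under 0.05, 3 of them members.

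**Figure D4:**
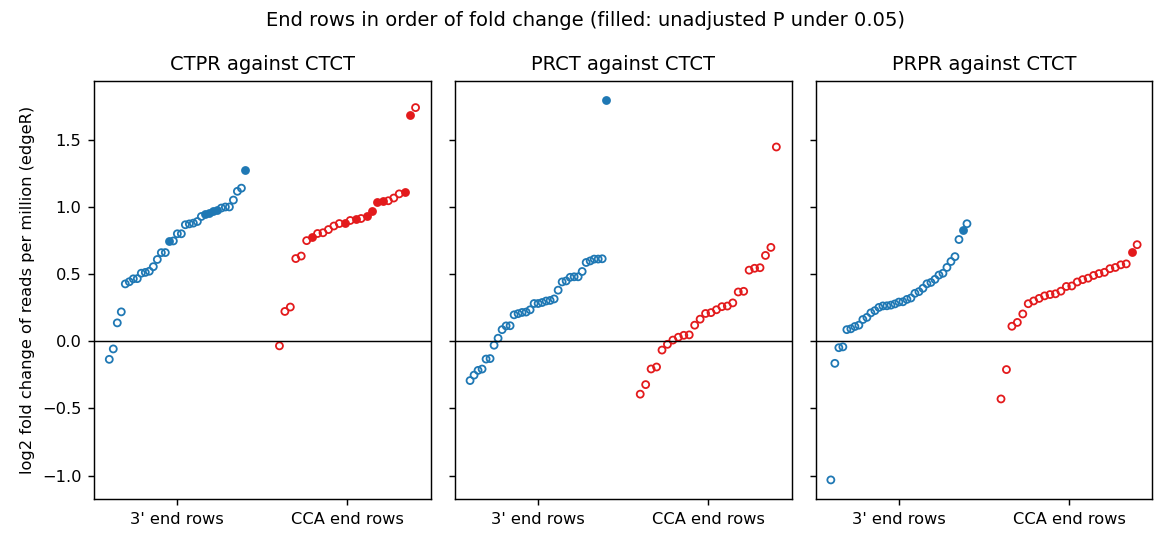
Log2 fold change of RPM from edgeR for each tested 3′ end and CCA end row, in order of size, in CTPR, PRCT and PRPR against CTCT, with filled points for an unadjusted P under 0.05 and without the CCA end rows with reads in fewer than 10 mice. Most rows lie above 0 in CTPR, where the median over all 65 member rows is 0.87, against 0.23 in PRCT and 0.35 in PRPR.

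In PRCT and PRPR fewer rows stood apart from CTCT. In PRCT 4 of 65 rows had an unadjusted P under 0.05, 3 higher and 1 lower, against 3.97% of all rows. In PRPR it was 4 of 65, against 2.65% of all rows, and in PRPR against PRCT 3 of 65, against 1.99%. The median log2 fold change of the members was 0.23 in PRCT (0.05 over all rows), but 0.44 without litter 47I, 0.02 without mouse 59L1, 0.11 without mouse 07C3 and 0.08 without libraries 07C3, 35F2, 31A3 and 08G5, and it was 0.35 in PRPR (0.26 over all rows). Several of these rows rested on few mice. The Ala-CGC 3′ end row had 56.0 RPM in mouse 59L1 and a PRCT median of 2.54 RPM beside 2.79 in CTCT, and its log2 fold change of 1.79 (edgeR, P = 0.0106, adjusted P = 0.401) was -0.19 without that mouse. Thr-TGT, a threonine tRNA with CCA end medians of 6.70 RPM in CTCT, 12.1 in CTPR, 9.78 in PRCT and 10.8 in PRPR, had reads in all 38 mice and a log2 fold change of 0.67 in PRPR (edgeR, P = 0.0481, adjusted P = 0.940).

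For the difference between the 2 post-weaning effects, 4 of 65 rows had an unadjusted P under 0.05, against 5.3% of all rows. Gly-CCC 3′ end had medians of 5.83 RPM in CTCT and 9.14 in CTPR but 4.45 in PRCT and 5.22 in PRPR, a difference of 1.29 on the log2 scale (edgeR, P = 0.0376, adjusted P = 0.649). The other 3, Ala-CGC 3′ end and the CCA end rows of Gly-GCC and Glu-TTC, rested on few mice.

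Shares of the isoacceptor's own reads were compared with limma in 101 rows for fragment ends, 64 of them members, and 0 members passed in any comparison. After adjustment 0.99% of the 101 rows, a 5′ end row, passed in PRCT and 0% in the other comparisons. At an unadjusted P under 0.05 there were 2 members in CTPR (7.92% of all rows), 6 in PRCT (10.9%), 0 in PRPR (2.97%), 0 in PRPR against PRCT (0%) and 3 for the difference of post-weaning effects (5.94%). In CTPR these were 2 lower shares. Arg-CCT 3′ end reads had a median of 5.15% of the isoacceptor's reads in CTCT and 3.53% in CTPR (log2 difference -1.20, SE 0.45, limma, P = 0.0119, adjusted P = 0.401). Glu-TTC 3′ end reads had medians of 1.34% and 0.956% (-0.83, SE 0.33, limma, P = 0.0167, adjusted P = 0.421). As levels, the medians in CTCT and CTPR were 5.39 and 8.91 RPM for Arg-CCT and 24.7 and 24.8 RPM for Glu-TTC.

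In PRCT the share of SeC-TCA reads that were 3′ ends had a median of 1.25%, against 0.57% in CTCT (log2 difference 0.75, SE 0.33, limma, P = 0.0306, adjusted P = 0.403). Thr-TGT CCA end reads numbered 36.2 per 100 reads of the isoacceptor in PRCT and 18.9 in CTCT by their medians (0.69, SE 0.33, limma, P = 0.0439, adjusted P = 0.403). Leu-AAG in the CCA end class (1.42, SE 0.58) and Leu-TAG in the 3′ end class (1.80, SE 0.79) were higher, each with an adjusted P of 0.403 from limma. Of the 6 rows, 5 were higher in PRCT and 1 was lower. The lower row was Thr-CGT in the CCA end class. No difference is given for it, since it had reads in 6 mice and in none of PRCT. A further higher row, in the CCA end class, is not named, because up to 4 rows per direction were. For the difference of post-weaning effects the rows were all 3′ end rows, Gly-GCC (-1.83, SE 0.73), Glu-TTC (-1.07, SE 0.47) and Val-CAC (2.22, SE 1.05), with an adjusted P of 0.672 from limma.

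Some CCA end rows held reads in a few mice only. In 10 of the 36 rows fewer than 10 mice had any read, and where there were reads they could be many. Arg-TCT had 496 reads in 59L1, 134 in 51O1, 123 in 23F6 and 85 in 31A6 and 0 in the other 34 mice. Gly-GCC had 21 to 166 reads in 9 mice, 1 in CTCT, 3 in CTPR, 4 in PRCT and 1 in PRPR. Thr-CGT had reads in 6 mice, none of them PRCT, and Val-CAC and His-GTG had reads in 1 mouse each. Arg-TCT, Arg-TCG, Gly-GCC and Thr-CGT gave 7 of the 11 unadjusted calls in PRCT and PRPR against CTCT and in PRPR against PRCT, and no fold change is given for them. Without rows of this kind, 1 member row in each of these 3 comparisons had an unadjusted P under 0.05, and 17 in CTPR.

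In 34 of 37 mice the CCA end rows summed to more reads than the class total that the same counts give. In 7 of 37 mice the rows summed to over 20% more than the total, and in the other mice the median excess was 51 reads and the range -10 to 490. Glu-TTC carried much of the excess. It had 1353 reads in 02A8, where rows summed to 2093 against a total of 579, and 1394 in 23F4, with 2399 against 1033. In 14A5 it had 526 of 1386 reads against a total of 542, together with 309 of Val-TAC, and in 09H7 524 of 1381 against 809. In the group medians Glu-TTC had 4.09 RPM in CTCT, 12.1 in CTPR, 5.98 in PRCT and 5.54 in PRPR. One mouse, 47I1, had a class total of 793519 beside rows that sum to 3900 and was left out of this comparison. The cause of the excess was not tested.

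**Figure D5:**
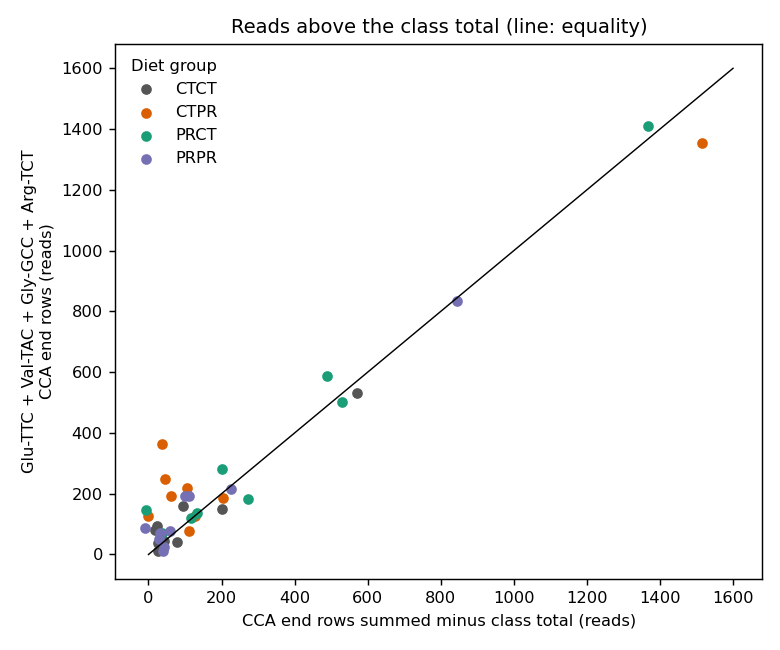
Reads of Glu-TTC, Val-TAC, Gly-GCC and Arg-TCT together in the CCA end class against the reads by which the CCA end rows exceed the class total, on linear axes, with 1 point for each of 37 mice coloured by diet group and a line at equality. The 4 rows were chosen after their values were seen, and mice 23F4 and 02A8, with 1394 and 1353 reads of Glu-TTC, lie at the far right.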

How the data were processed

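Swim-out sperm small RNA of 38 mice had been made into libraries with a small RNA kit, with inserts of 13 to 73 bp selected, and sequenced in reads of 75 bp. The authors mapped the reads with SPORTS 1.0 to mm10 (as named in the submitters' processing notes) and to small RNA databases, and deposited raw counts for every class and every member of a class, mouse by mouse. Database versions and alignment settings are not given in the sources used here. Reads that fit several isoacceptors can be split or counted in several rows, so values of near-identical isoacceptors are uncertain.

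Here, member rows were summed per class and divided by the genome-matching reads of each mouse. Class measures were compared by two-sided permutation tests (exact with fewer than 10 mice in a group, 100000 permutations otherwise) with Benjamini-Hochberg adjustment. Rows with a mean of at least 5 reads were fitted over 151 tRNA rows by the quasi-likelihood test of edgeR 4.0.16 (R 4.3.3, genome-matching reads as library size, all groups in 1 fit). It gives no standard error of a fold change. Shares were fitted with limma 3.58.1 on log2 of end reads over the isoacceptor's reads, each plus 0.5, for isoacceptors with a mean of at least 100 reads. The plan was to divide by the isoacceptor's other reads, but these would be negative where an end row exceeds the row for the whole tRNA. DESeq2 1.42.0 was an alternative, and Python 3.11.15 with scipy 1.17.1 and pandas 2.3.3 was used for the rest. The tests were tried on simulated data. Each mouse was 1 replicate, and littermates are not independent. No 2 mice of a group differed by as little as sampling noise (lowest chi-square per degree of freedom 142.8).

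Litters pair CTCT with CTPR and PRCT with PRPR mice through the mouse names in the labels. Deviations of littermates from their group means had correlations of 0.237 to 0.618 over 4 class measures. The fit with litter as a block was an alternative. Other alternatives covered litter 47I, libraries 07C3, 35F2, 31A3 and 08G5 (class totals of the last 3 do not add up to the genome-matching reads), litter 02A, mouse 59L1, the denominator, the scale, the normalisation, filters, offsets and the tool. Leaving out 07C3 alone, the other 3, or each litter under the block, using the class total of CCA end reads, omitting Glu-TTC or CCA end rows with reads in under 10 mice, and grouping by amino acid were chosen after seeing the data.

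Isoacceptors were named as the 6 most abundant of each class, the 4 with the highest and lowest shares, up to 4 rows per direction and comparison by smallest unadjusted P in edgeR and in limma, and the list of 9 known for 5′ fragments. Others named were chosen after their values were seen. The members and lists were chosen with earlier results of these data known. Intervals and floors are not given, and depth limits the precision of rows with few reads. Sequences were credited to RefSeq and GENCODE.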

Additional observations from a re-analysis of the deposited data

Results flagged for a closer look

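In 64 groups of mice, formed by the class measures and the 12 leading rows, 15 held a mouse far from the others by Dixon's test. The rate of about 1 group in 20 for this test assumes normal values and separate groups. Levels of the 12 rows were not put on a log scale and the same mice recur, so 15 cannot be set against that rate. Mouse 59L1 stood high in PRCT in 4 3′ end rows, with 176.8 RPM of Asn-GTT (next 63.9), 251.6 of Asp-GTC (next 123.3), 79.1 of Gly-ACC (next 33.98) and 101.7 of Met-CAT (next 41.8). Glu-TTC CCA end reads had 1 high mouse in each group, 82.0 RPM in 09H7 of CTCT (next 11.2), 294.3 in 02A8 of CTPR (next 23.7), 212.0 in 23F4 of PRCT (next 59.6) and 94.7 in 14A5 of PRPR (next 10.1). Mouse 23F4 also had the highest CCA end level per 100 tRNA reads in PRCT, 0.695 (next 0.436).

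Glu-TTC 3′ end reads were high in 02A6 of CTCT with 99.0 RPM (next 38.6) and in 02A8 of CTPR with 72.2 (next 36.5), which are littermates. Gly-ACC 3′ end reads were high in 47I1 of CTCT with 60.5 RPM (next 29.8) and in 40H3 of PRPR with 87.2 (next 44.5). Mouse 40H3 was also high in Tyr-GTA CCA end reads with 47.0 RPM (next 26.9). Mouse 09H5 had the lowest 3′ end level of CTPR, 171.9 RPM (next 391.4). Outside the members, CCA end reads that do not match the genome were found at a mean of 1166 RPM over all mice, and no control without tRNA reads exists. None of these was tested for a cause.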

How the results depend on the processing

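Of the class measures, 156 values under alternatives kept their direction and their side of the threshold and 14 reversed, none of them a difference that passed the test. Without libraries 07C3, 35F2, 31A3 and 08G5 the CCA end level per 100 tRNA reads was -0.0185 for PRCT and -0.0101 for PRPR against CTCT, and the log2 3′ end level of PRCT was -0.0231. Without mouse 07C3 alone these were -0.0122, -0.0122 and -0.0241. Without litter 02A, PRCT and PRPR were -0.0100 and -0.0101 from CTCT in CCA end reads per 100 tRNA reads. Without mouse 59L1 the log2 3′ end level of PRCT was -0.0588. As a median over isoacceptors, the 3′ end share was 0.364, 0.342 and 0.168 percentage points higher than CTCT in CTPR, PRCT and PRPR, and without Gly-GCC it was 0.0633 higher in CTPR. With class totals for CCA end reads and 47I1 left out, the PRCT difference was -0.00139. The cause was not tested.

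Counts of rows called after adjustment kept within the limit in 113 cases and moved in 9. They were 3 in CTPR with litter as a block, and 1 in PRPR against PRCT with TMM and also 1 with DESeq2 size factors, in place of 0 (Gly-GCC CCA end in both). With each litter of the block left out in turn, 0 to 24 rows passed in CTPR, the other 6 cases being among these. The block changed no other count or class call, and with all litters the CCA end rows of Arg-TCG, Arg-ACG and Val-TAC were those that passed under it. No paired comparison of PRCT or PRPR with CTCT was possible because these groups share no litter. Of single rows, 297 values kept their call, and Ala-CGC 3′ end in PRCT reversed to -0.19 without 59L1, while 9 passed only under an alternative, all with the block. The unadjusted member count in CTPR, 16, was 1 with TMM, 3 with DESeq2 size factors, 10 with DESeq2, 7 with all classes in 1 fit, 8 with the older quasi-likelihood method, 27 without litter 47I, 8 without mouse 07C3, 11 without 35F2, 31A3 and 08G5, and 6 without libraries 07C3, 35F2, 31A3 and 08G5. The log2 gap in CCA end level between CTPR and CTCT ranged from 0.85 to 1.31, with an adjusted P of 0.0786 or more. Depth limits the rows with a mean near 5 reads, where 1 mouse can set a group's mean.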

Other observations

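Tryptophan had no CCA end reads matching the genome but 73.1 RPM not matching it, and 5.96 RPM in 3′ end rows. Serine was alike, with 0.151 RPM matching and 27.5 RPM not matching. Isoleucine showed the opposite balance, with 64.4 RPM matching and 50.02 RPM not matching, and proline had 6.85 and 5.33 RPM. Selenocysteine had 6.87 RPM in 3′ end rows, no CCA end row matching the genome and 0.00852 RPM not matching it. These are means over 38 mice, with no test.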
